A study of Rattus norvegicus with 4 samples.

Results

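The peaks described here are 3563 places in the rat genome where DNA was stacked high after precipitation with a CD44 antibody from serum-starved cells, and where the serum-fed cells had no peak. They were chosen by measured values: a row of the starved peak list on chromosomes 1 to 20, with a pileup of at least 12, a length under 1000 bp and no serum peak overlapping the peak or the 500 bp on either side of it. The pileup, called height below, counts the DNA fragments that overlap at the top of the peak. Of the 409937 peaks of the starved list, 379113 lay on chromosomes 1 to 20, 372789 of these were under 1000 bp, and 5833 of these had a height of at least 12. Of the 5833 tall short peaks, 3563 had no serum peak within 500 bp and are called starved-only tall peaks. The other 2270 had one, which overlapped the peak itself in 1780 and lay 1 to 500 bp away in 490. Height, length and the missing serum peak are the choice itself and are given as a description.

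The cells came from the rat nucleus pulposus, the gel-like core of the intervertebral disc. The control cells were kept in DMEM-F12 with 10% fetal bovine serum, the starved cells in medium with 0.1% serum. Each condition had 1 library precipitated with the CD44 antibody and 1 input library of unprecipitated DNA, and each peak list held 1 condition. The labels give no genotype, age or sex of the animals, and do not say whether the cells were pooled. No RNA or protein was measured, so the cell type could not be checked against its markers. With 1 precipitated library per condition, every difference below describes these libraries and has no replicate behind it. Intervals in parentheses are exact 95% intervals that cover counting error only.

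CD44 is a cell-surface receptor that binds hyaluronan, the large sugar polymer of loose and gel-like matrices. It has no known DNA-binding domain of its own. Its outer part can be shed by metalloproteases and its membrane part cut by gamma-secretase, which frees an intracellular part that has been described in the nucleus together with transcription regulators. Serum withdrawal is a common way to bring cultured cells into quiescence. A CD44 ChIP-seq peak is therefore a place where DNA was recovered with the antibody more than the local background would give, directly or through other proteins. Peak positions are on the build Rnor_6.0. A genome and gene annotation of that build were not used here, so the peaks are given by position, without genes or sequence.

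Most starved-only tall peaks were only a little above the height limit. Their height ran from 12 to 159 fragments with a median of 13 (quartiles 12 and 16), and 2347 of them (65.9%) had 12 to 14 fragments. Heights of 15 to 19 were found in 951 peaks, 20 to 29 in 225 and 30 or more in 40. At the limit itself, 1087 peaks had a height of 12, and 1521 short peaks without a serum counterpart stood just outside it at 11. These neighbours had median fold enrichments of 11.4 and 10.5 and median lengths of 359 and 356 bp. At the length limit, 28 starved-only tall peaks were 900 to 999 bp long, and 20 peaks of 1000 to 1099 bp were otherwise alike. At the margin, 115 peaks had their nearest serum peak 501 to 600 bp away, and 107 tall short peaks were just outside at 401 to 500 bp.

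**Figure D1:**
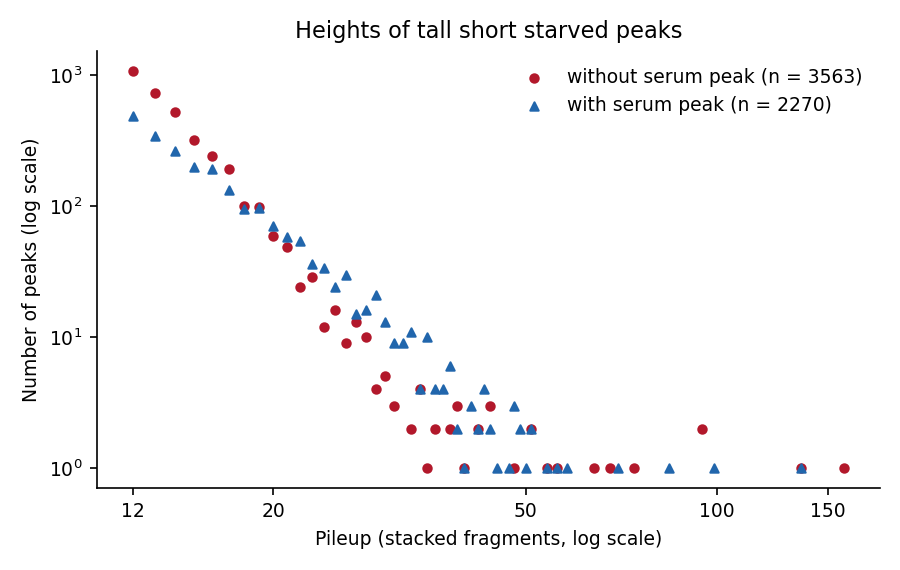
Number of tall short starved peaks (log scale) at each height in stacked fragments (log scale), for peaks without a serum peak within 500 bp (circles, 3563 peaks) and with one (triangles, 2270 peaks). The starved-only peaks outnumber the others at heights of 12 to 14, and make up 225 of the 584 at heights of 20 to 29.

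Among all short starved peaks on these chromosomes, 81% had no serum peak within 500 bp, and among those of height 12 or more 61.1% had none. Of all 372789 short starved peaks, 154600 had a height of 1 and 98341 a height of 2. Shares given for all short starved peaks therefore mostly describe peaks of 1 or 2 fragments. In the serum list 14808 short peaks on the same chromosomes had a height of at least 12, and 17.6% of them had no starved peak within 500 bp. The same share over all short serum peaks was not counted, and the starved list held more peaks (409937 against 289279). The 17.6% and 61.1% are therefore not comparable. A height of 12 means different things in the lists. It was 120 times the lowest local background of the starved list, but 7.99 times that of the serum list. A serum peak at 120 times the lowest serum background would stack 181 fragments, a height that 21 of the 256317 short serum peaks reached.

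The authors' fold enrichment compares the height with the local background, with 1 added to both. It had a median of 12.3 in the starved-only tall peaks (quartiles 11.4 and 13.6, range 1.76 to 68.2), and 88.2% of them had 10 or more. In the tall short peaks with a serum counterpart the median was 11.8, and 73.0% had 10 or more. Of the starved-only tall peaks, 3 had a q above 0.05. The weakest lay at chr14:94591177-94591711, where 13 fragments stood on a background 69.9 times the lowest of the list. The fold enrichments of these 3 peaks were 1.76, 1.99 and 2.20, so the rule also took in peaks little above a high local background.

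The local background sets an upper limit on the number of input fragments under each peak. MACS2, the peak caller, takes as background the highest of the genome-wide density and of the input density around the peak, usually in a window of fragment length, one of 1 kb and one of 10 kb. In the starved list the background rose in steps. Of the 375663 peaks of height 6 or less, 40.3% had a background that was a whole multiple of 0.0353 within 0.15%, 17.3% were at the lowest background, and a further 24.3% were at whole multiples of 0.00767. The second step was not found separately but was set as the first one spread from 217 bp, the shortest peak, over 1 kb. How many backgrounds would lie that near to a multiple at random was not counted. Read as the worth of 1 input fragment, the first step means 28.3 input fragments for each precipitated fragment in the starved condition, as the peak caller weighed them. In the serum list the same reading gave a step of 0.544 and 1.84 input fragments for each precipitated one. The lowest background then stood for a mean stack of 2.82 input fragments in the starved and 2.76 in the serum condition. The inputs were thus near each other in stacked depth, while the lowest backgrounds themselves differed 15.1-fold. On this reading the starved condition had fewer precipitated fragments, relative to its input, than the serum condition. The lowest height of any peak was 1 for the starved and 4 for the serum-fed cells. A missing serum peak therefore does not show that precipitated serum fragments were absent there. The serum background at places of high starved background was not tested.

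On this reading, 72.7% of the starved-only tall peaks (71.2 to 74.1) had at most 5 input fragments stacked under them, and 645 had at most 2. Of the tall short peaks with a serum counterpart, 36.0% (34.1 to 38.0) had at most 5. The local background was at most 1.5 times the lowest in 2028 starved-only tall peaks (56.9%, 55.3 to 58.6), against 27.3% (25.5 to 29.2) of the tall peaks with a counterpart. It was raised, meaning more than 2 times the lowest, in 1000 (28.1%, 26.6 to 29.6), against 64.6% (62.6 to 66.6). Among all 372789 short starved peaks the share with a raised background was 24.5%. At this limit the starved-only tall peaks were nearer to the whole list than to the tall peaks with a counterpart. A background over 20 times the lowest was found in 4.18% of them and in 6.96% of the tall peaks with a counterpart. It was found in 0.796% of unshared short peaks of height 9 to 11 and in 0 of the 80760 of height 2. Low peaks cannot be called on so high a background, so this share depends on the height. It was not compared with the whole list. A test was not made, since the background enters the choice through the peak caller.

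**Figure D2:**
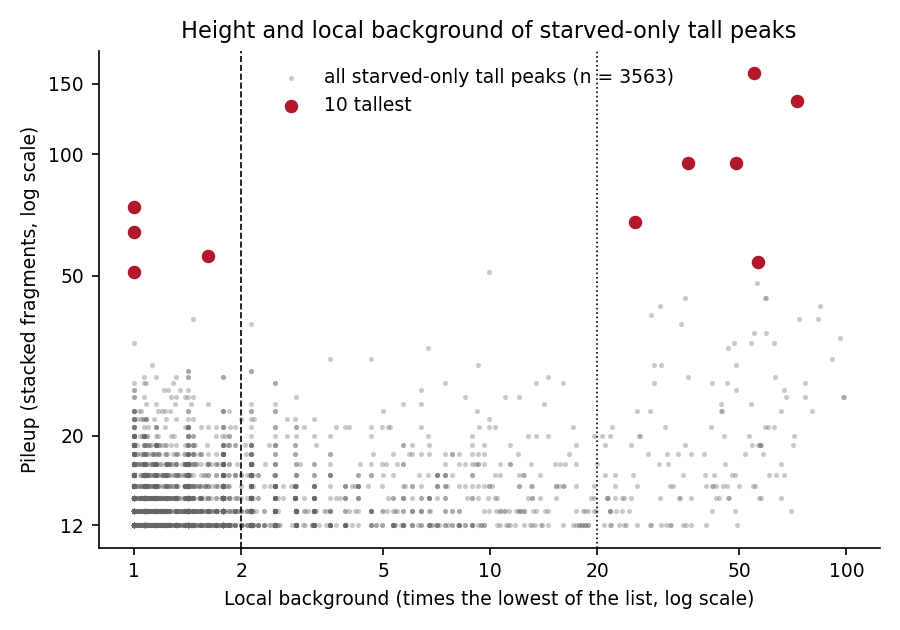
Height in stacked fragments (log scale) against local background as a multiple of the lowest in the starved list (log scale), with 1 point per starved-only tall peak and the 10 tallest in red. The dashed line marks 2 times and the dotted line 20 times the lowest. Of the 10 tallest, 4 lie left of the dashed line and 6 right of the dotted line.

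Of the 10 tallest peaks, 6 stood on a background more than 20 times the lowest and 4 on one below 2 times the lowest. The tallest of all, at chr5:91140421-91140938, stacked 159 fragments over a stretch of 518 bp. Its background was 55.0 times the lowest, which allows up to 155 input fragments, and its fold enrichment was 24.7. At chr1:11972282-11973146 a height of 136 stood on a background 72.7 times the lowest, with a fold enrichment of 16.6. A second peak of the same neighbourhood, chr1:11909079-11909517, had a height of 95 at 36.0 times the lowest background. Which of the peak caller's windows gave these backgrounds was not tested. At these 3 places a great height thus went with a high local background.

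The same held for the peak at chr6:30638630-30639349, with a height of 95 at 49.0 times the lowest background, and for chr1:36361090-36361492, with 68 fragments at 25.5 times. At chr14:46329382-46330076 a height of 54 at 56.4 times the lowest background had a fold enrichment of only 8.31. Serum peaks lay between 3500 bp (chromosome 6) and 20363 bp (chromosome 5) from these 6 peaks of high background.

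At the other 4 of the 10 tallest the local background was at or near the ordinary level of the list. At chr8:109261811-109262228 there were 74 precipitated fragments, and the background was the lowest of the list, which allows at most 2 input fragments. Its fold enrichment of 68.2 was the highest in the whole starved list, all sequences and lengths included. At chr2:162972378-162973000 the height was 64 and the fold enrichment 59.1, again with at most 2 input fragments. The peak at chr17:39640160-39640541 stacked 51 fragments with at most 2 input fragments and a fold enrichment of 47.3. At chr15:21192484-21192870 the height was 56 with at most 4 input fragments, and the fold enrichment was 49.1. These 4 peaks were 382 to 623 bp long, and the nearest serum peaks lay 2094, 2096, 25095 and 1769 bp away, in the order given. Another peak, on chromosome 6, also had a height of 51 but a lower fold enrichment, and was left out of the 10 by the tie rule.

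Height and background went together at the upper end. A raised background was found in 24.8% of the starved-only tall peaks of height 12 to 14 (23.0 to 26.6), in 30.6% of those of 15 to 19 (27.7 to 33.6), in 42.2% of those of 20 to 29 (35.7 to 49.0) and in 33 of the 40 of 30 or more (82.5%, 67.2 to 92.7). The median fold enrichment rose with height from 11.8 to 14.6 and 18.99 over the first 3 classes, and was 10.4 in the tallest class. Both height and background are values of the same position, so these shares describe the list and are not independent of each other.

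Up to a height of 29, taller starved peaks had a serum counterpart more often than low ones, with a wider span of shares where the background was raised than where it was near the lowest. Where the background was within 1.5 times the lowest, 82.8% of short starved peaks of height 1 had no serum peak within 500 bp (82.6 to 83.1). The share was 77.7% at heights of 12 to 14 (75.6 to 79.6), 75.2% at 15 to 19 (71.9 to 78.4) and 74.3% at 20 to 29 (66.5 to 81.1). Only 16 peaks of height 30 or more had such a background, and 6 of them had no counterpart (37.5%, 15.2 to 64.6). At a raised background the share without a counterpart was 85.2% at height 1, 49.6% at 12 to 14 (46.7 to 52.5), 37.4% at 15 to 19 (33.9 to 40.9), 24.0% at 20 to 29 (19.9 to 28.5) and 27.7% at 30 or more (19.9 to 36.7). From 30 upward the intervals at low and raised background overlapped. Where the background was over 20 times the lowest, the share was 61.5% of 39 peaks at heights of 6 and 7 (44.6 to 76.6). It was 66.7% of 51 peaks at 8 and 9 and 38.8% of 85 at 20 to 29. These were the highest and the lowest share among the height classes from 6 upward. Their intervals did not overlap, but those of every other pair of these classes did. From 8 and 9 to 20 to 29 the share did not fall evenly, with 50.7% at 10 and 11, 56.96% at 12 to 14 and 48.4% at 15 to 19. At 30 or more the share was 51.9% of 52 (37.6 to 66.0). For comparison, 83.8% of all positions on chromosomes 1 to 20 were out of reach of a serum peak, counted for the midpoint of a peak of the median length of 362 bp. Assembly gaps are among these positions. At a low background, tall starved peaks up to a height of 29 thus met a serum peak somewhat more often than the average position did, and at a raised background they did so more often still.

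**Figure D3:**
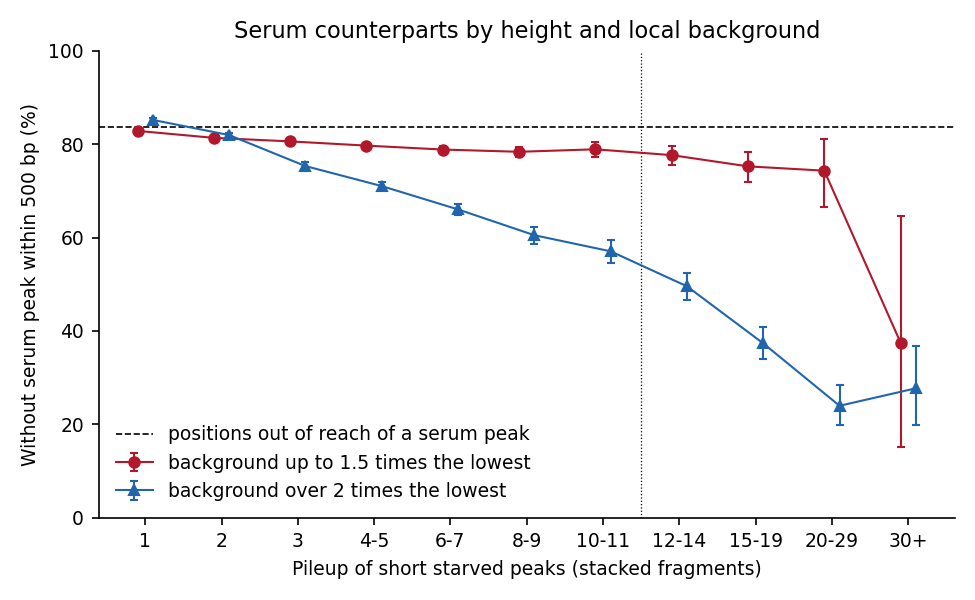
Percent of short starved peaks on chromosomes 1 to 20 without a serum peak within 500 bp, by height in stacked fragments, with a background within 1.5 times the lowest (circles) or over 2 times it (triangles). Bars are exact 95% binomial intervals, the dashed line is the percent of positions out of reach of a serum peak (83.8%), and the dotted line marks the height limit of 12. The low-background line stays between 74.3% and 82.8% up to a height of 29, while the raised-background line falls from 85.2% to 24.0%. At 30 or more the intervals of the lines overlap.

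The starved-only tall peaks were narrow at every height. Their median length was 362 bp (quartiles 319 and 418), against 451.5 bp (355 and 667) for tall short peaks with a serum counterpart. At heights of 12 to 14, 15 to 19 and 20 to 29 the median lengths were 361, 364 and 364 bp, and at 30 or more 448.5 bp. The difference from the shared peaks was mostly found at a raised background, where the medians were 375 and 556.5 bp. Where it was within 1.5 times the lowest they were 357 and 369 bp.

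The lengths were also set against that of a peak of 1 fragment. In the starved list 96.9% of the peaks of height 1 had exactly the shortest length of 217 bp. Peaks of height 1 occurred up to a background of 3.56 times the lowest, and 3074 of the starved-only tall peaks (86.3%) were below that. Their median length of 361 bp exceeded the shortest peak of 217 bp by 144 bp (quartiles 103 and 195). None of these 3074 was within 10 bp of the shortest length (exact interval up to 0.120%). How many of the stacked fragments were copies of each other was not tested, because no source used here says how duplicates were treated.

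Close to them the starved-only tall peaks had about as many neighbours as weak unshared peaks had, and fewer than the shared tall peaks. Another starved peak lay within 1 kb of 28.4% of them (26.9 to 29.9), against 60.2% (58.2 to 62.2) of the tall short peaks with a serum counterpart and 29.8% of the 80760 short starved peaks of height 2 without a counterpart. Among all short starved peaks the share was 33%. Counting only neighbours under the height limit, the share was 26.4% for the starved-only tall peaks and 32.4% among all short starved peaks. A starved peak of 1 kb or more lay within 10 kb of 6.48% of the starved-only tall peaks, of 25.1% of the shared ones and of 5.49% of those of height 2. At wider distances nearly all had neighbours, with another starved peak within 5 kb of 77.8% and within 10 kb of 93.9%, against 78.2% and 94.1% of the unshared peaks of height 2.

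The nearest serum peak was at a median distance of 3798 bp (quartiles 1678 and 8295 bp, highest 275705 bp). For the unshared peaks of height 2 the median was 4236 bp. Within 20 kb of a starved-only tall peak there were on average 4.16 serum peaks, against 3.82 around unshared peaks of height 2 and 6.51 around shared tall peaks. The contrast with the shared peaks is partly the choice itself. It leaves 0 serum peaks within 500 bp of unshared peaks, while shared tall peaks had 1.19 on average. The surroundings of the starved-only tall peaks thus held no fewer serum peaks than those of weak unshared starved peaks.

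**Figure D4:**
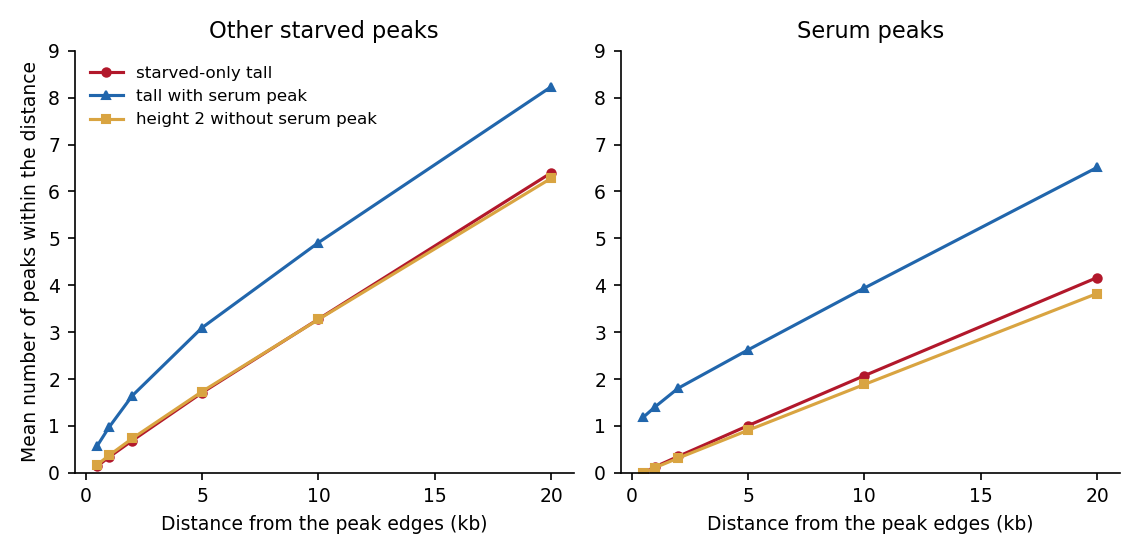
Mean number of other starved peaks (left) and of serum peaks (right) within a distance in kb of the peak edges, for starved-only tall peaks (circles), tall short peaks with a serum peak (triangles) and short peaks of height 2 without one (squares). The starved-only tall peaks run close to those of height 2 in both panels, at 6.40 and 6.28 other starved peaks within 20 kb, and below the shared tall peaks at 8.23. In the right panel the choice itself leaves no serum peak within 500 bp of unshared peaks.

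A minority were far from any serum peak, and most of these lay on 2 chromosomes. The distance was above 10 kb for 727 starved-only tall peaks (20.4%) and above 50 kb for 73 (2.05%). Chromosomes 4 and 10 held 44 of these 73 (60.3%, 48.1 to 71.5), but 11.4% of all starved-only tall peaks. Both chromosomes had few serum peaks, 43.0 and 53.5 per Mb, where the median of the 20 chromosomes was 106. The farthest, chr10:102382416-102382818, had a height of 12 and lay 275705 bp from the nearest serum peak. Next came chr6:16558245-16558582, with a height of 18 at the lowest background and a distance of 263186 bp. The other 3 of the 5 farthest were chr10:107577877-107578208 (206789 bp), chr4:115935601-115936341 (196303 bp) and chr10:96399713-96400015 (180918 bp). Their heights were 15, 13 and 15, so distance did not go with height in these 5. Such distances were not particular to the starved-only tall peaks. Of these, 95% lay within 32084 bp of a serum peak, and 95% of the unshared short peaks of height 2 lay within 33399 bp. Where the far peaks of height 2 lay was not counted by chromosome.

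Over the chromosomes the density of all starved-only tall peaks varied less than that of the serum peaks, while some subsets had wider ranges. There were 1.36 per Mb over chromosomes 1 to 20 (1.32 to 1.41). The density ran from 1.11 per Mb on chromosome 18 (0.902 to 1.35) to 1.61 on chromosome 17 (1.36 to 1.89), a 1.45-fold range, while serum peaks had a 2.93-fold range on the same chromosomes. The range was 4.11-fold for the 265 of height 20 or more (1.39 to 16.5) and 3.35-fold with a margin of 5000 bp to serum peaks (2.16 to 5.44). Both intervals include the serum range, so whether these subsets varied more or less than the serum peaks cannot be told. For those with a background within 1.5 times the lowest the range was 2.997-fold. Chromosomes 4 and 12, the poorest in serum peaks, had 1.44 and 1.16 per Mb. Chromosomes 2 and 11, the richest, had 1.52 and 1.23. The share of tall short peaks without a counterpart ran from 51.9% on chromosome 7 (46.2 to 57.5) to 66.7% on chromosomes 10 (59.9 to 73.0) and 17 (60.0 to 72.9).

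**Figure D5:**
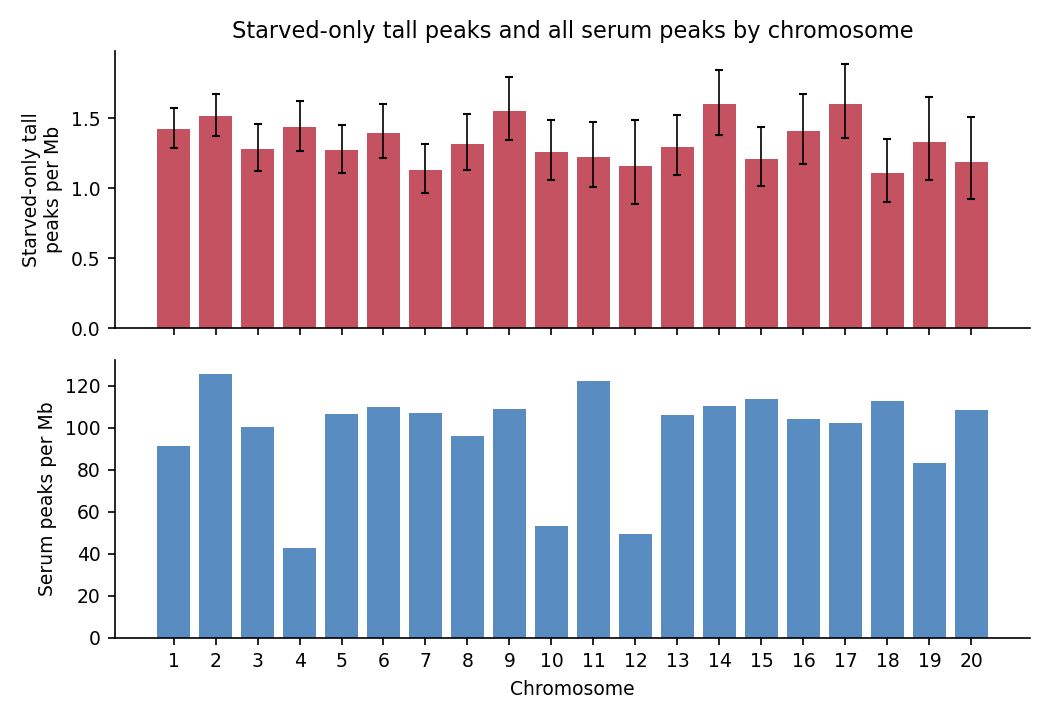
Starved-only tall peaks per Mb (top, bars with exact 95% Poisson intervals) and all serum peaks per Mb (bottom) on chromosomes 1 to 20. The upper bars stay between 1.11 and 1.61 per Mb, and the lower bars are low on chromosomes 4, 10 and 12.

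On chromosome 4 few starved-only tall peaks had a low background. There, 43.8% of the 265 starved-only tall peaks had a raised background, and 66 had one within 1.5 times the lowest, or 0.358 per Mb. Chromosome 14, at the other end, had 1.07 such low-background peaks per Mb. Chromosome 19 had the highest share of raised background, 48.2% of 83 peaks, and chromosome 11 the lowest, 15.3% of 111. These shares were not counted by chromosome over all short starved peaks. Whether they are particular to the starved-only tall peaks was therefore not tested.

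Most starved-only tall peaks were far apart, and the larger groups among them mostly had a raised background. The median gap between neighbours on a chromosome was 472 kb (quartiles 163 and 1001 kb). Another starved-only tall peak lay within 100 kb of 1033 of them (28.99%, 27.5 to 30.5), against 23.6% of all short starved peaks. One lay that near to 32.0% (30.1 to 34.0) of the tall short peaks with a serum counterpart. For unshared short peaks of height 9 to 11 the share was 25.8% (24.8 to 26.9), so such nearness was not particular to the starved-only tall peaks. Joined at gaps of up to 100 kb, the starved-only tall peaks formed 2948 groups, of which 2530 were single peaks, 334 pairs and 67 groups of 3 or 4. Only 17 groups had 5 or more, with 148 peaks in all, and in 16 of these the median background was raised. In 10 it was more than 20 times the lowest. Gaps under 1 kb were found 33 times, the shortest being 168 bp.

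The 3 groups with the most peaks all had a median background more than 20 times the lowest. On chromosome 1 from 55640150 to 55755228, 19 starved-only tall peaks had heights of 12 to 42 (median 19) on backgrounds of 8.87 to 84.4 times the lowest (median 42.4). The same span of 115 kb held 6 serum peaks, and 24 tall short starved peaks in all. On chromosome 14 from 46522562 to 46686082, 19 such peaks had heights of 12 to 48 (median 23) at a median background of 35.8 times the lowest. That span held 26 serum peaks. On chromosome 9 from 12204753 to 12426384, 16 such peaks had heights of 12 to 31 (median 15) at a median background of 22.5 times the lowest, and 5 serum peaks lay among them. Fold enrichments in the 3 groups were low, with medians of 4.54, 4.43 and 4.99. Tall peaks and a high local background thus occurred together in these stretches. Whether they are repeated or multiplied sequence was not tested.

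In all, 149 starved-only tall peaks (4.18%, 3.55 to 4.89) had a background more than 20 times the lowest, on 16 of the 20 chromosomes, with 52 on chromosome 1, 27 on chromosome 14 and 15 on chromosome 9. The groups of 5 or more held 92 of them. Their median height was 18 and their median fold enrichment 3.92, and all 3 starved-only tall peaks with a q above 0.05 were among them. By contrast, the 555 at the lowest background had a median height of 14, a median fold enrichment of 13.6 and a lowest fold enrichment of 11.8.

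Density was somewhat higher at the starts of the chromosome sequences. The first 2 Mb of the 20 chromosomes held 70 starved-only tall peaks, 1.75 per Mb (1.36 to 2.21), and 44 of these (62.9%) had a raised background. The last 2 Mb held 50, or 1.25 per Mb (0.928 to 1.65), with 32.0% raised. The overall density of 1.36 per Mb is at the lower bound of the first interval and inside the second. Density and raised background in these windows were not counted over all short starved peaks. Whether they are particular to the starved-only tall peaks was therefore not tested.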

How the data were processed

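The authors deposited 1 peak list per condition on Rnor_6.0. The submitters' processing notes name FastQC, STAR 2.5.3a and MACS2 2.1.1. Tool options, duplicate treatment and read totals were not stated in those notes or the labels. Per the labels, libraries of 200 to 500 bp were sequenced as paired reads of 150 bases. Per the file headers, each peak has a pileup signal, a fold enrichment (a ratio), a p-value and a q-value named FDR. All are the authors' own values and describe a peak within its list.

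The fold enrichment was taken as (pileup + 1) / (local background + 1) and solved for the background. The worth of 1 input fragment was taken as the largest step of which the 6 most frequent background values above the lowest were whole multiples, directly or spread over 1 kb. Chromosome lengths are the last peak end of either list. Distances run from edge to edge. The distance, grouping and step calculations were tested on simulated data. Positions are 1-based. No test between conditions was made, with 1 precipitated library each.

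The peaks and all measures were chosen with earlier results of these data known. Named peaks are the 10 with the greatest height (ties by fold enrichment), the 5 farthest from a serum peak and the 3 groups with the most peaks. The single peak of weakest q and the neighbour tied in height were named after their values were seen. Gene positions, base composition, motifs and gene lists had been planned and were left out, since a Rnor_6.0 genome was not used here. Python 3.11.15, numpy 2.4.6, pandas 2.3.3, scipy 1.17.1 and matplotlib 3.10.9 were used.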

Additional observations from a re-analysis of the deposited data

How the results depend on the processing

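No paired analysis was possible because there is 1 precipitated library on each side, which also leaves no replicate to drop. The number of starved-only tall peaks, 3563, was 265 at a height of at least 20 and 1421 with a margin of 5000 bp. It stayed within 1.5 times under the other settings, from 2563 without peaks of raised background to 4349 when only serum peaks with a q of at most 0.05 counted. The share of tall short peaks without a counterpart, 61.1%, was 36.6% at a height of at least 20, 69.5% by overlap only, 53.7% and 24.4% with margins of 1000 and 5000 bp, 74.6% against serum peaks with a q of at most 0.05, 52.1% with no length limit, 70.8% under 500 bp and 76.1% without peaks of raised background, a setting added after seeing the data. With X added it was 60.3%. The 1.45-fold range over chromosomes was 4.11-fold at a height of at least 20 (1.39 to 16.5) and 3.35-fold with the margin of 5000 bp (2.16 to 5.44). The share with another starved-only tall peak within 100 kb, 28.99%, was 7.02% within 10 kb and 92.7% within 1 Mb. The share with a weaker starved peak within 1 kb, 26.4%, was 12.4% within 500 bp and 75.8% within 5 kb. A background over 1.5 times the lowest held for 43.1% and one over 5 times for 11.9%, against 28.1% over 2 times. Alternatives for gene positions and base composition were not run.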

Other observations

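Outside chromosomes 1 to 20, the same limits of height, length and margin were met by 148 peaks on X, 3 on Y, 3 on the mitochondrial genome and 20 on unplaced scaffolds. On X these were 46.7% (exact 95% interval 41.1 to 52.3) of 317 tall short peaks, against 61.1% on chromosomes 1 to 20, and their density was 0.925 per Mb. Their median background was at the lowest of the list, and 12.8% had a raised one. On unplaced scaffolds they were 25.3% (16.2 to 36.4) of 79, with a raised background in 50%. The 3 mitochondrial peaks had a median background 71.7 times the lowest. The difference between X and the other chromosomes was not tested.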
